A study of Mus musculus with 8 samples.

Results

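The genes described here are Smox, which encodes spermine oxidase, and 8 other genes of polyamine metabolism: Odc1, Amd1, Srm, Sms, Sat1, Azin1, Oaz1 and Paox. They were measured in mice with a knock-in model of SCA17, an inherited ataxia in which TBP, the protein that binds the TATA box, carries too long a stretch of glutamines. A gene was read from the probe set that carries its symbol alone in the platform annotation. Where a gene had several such probe sets, the brightest by its mean over the 8 arrays was taken. By this rule 5 of the 9 genes were measured, out of 19938 genes measured in all: Smox, Odc1, Azin1, Sat1 and Srm. Sms and Oaz1 had only probe sets that carry several symbols, and Amd1 and Paox had no probe set under their own symbol in the annotation used here, so these 4 genes are not analysed here. The set was chosen by a measured value, the lower level of Smox in the muscle of the knock-in mice. The comparison of knock-in with wild-type muscle is therefore given for the 5 genes as a description; where the calls of the fit are counted there, the count stands beside that over all genes and supports nothing.

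The 8 arrays formed 4 groups of 2: knock-in (KI) cerebellum with replicates 94 and 97, wild-type (WT) cerebellum with 95 and 96, KI muscle with 94 and 97, and WT muscle with 95 and 96. The muscle was the tibialis anterior (TA), a mainly fast-twitch muscle of the lower hind limb, and all mice were 3 months old. The design text speaks of 3 mice for either genotype; each genotype has 2 arrays of each tissue here. No source used here says whether the arrays of a group came from separate mice, so the tests measure the spread between these arrays, which may be technical. The strain, the sex, the length of the repeat and the construction of the knock-in allele are not stated in any source used here, and the labels name no treatment in any group.

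Levels are log2 values made by RMA, so a difference of 1 is a 2-fold change. Array medians lay between 5.40 and 5.51. Precision is limited by how few arrays there are. The tissue labels fitted their defining markers. The 6 muscle fibre markers (Acta1, Ckm, Myh4, Tnnt3, Ttn and Mb) were between 10.08 and 12.36 on the muscle arrays and between 4.24 and 6.18 on the cerebellum arrays. The 6 cerebellar neuron markers (Pcp2, Calb1, Gabra6, Neurod1, Zic1 and Cbln1) were between 7.56 and 11.54 in the cerebellum and between 3.70 and 5.64 in muscle.

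Polyamines are small positively charged molecules that bind nucleic acids and block certain ion channels. Ornithine decarboxylase, encoded by Odc1, makes putrescine from ornithine. Spermidine synthase (Srm) and spermine synthase (Sms) then add aminopropyl groups that come from S-adenosylmethionine by way of its decarboxylase (Amd1). Antizyme (Oaz1) sends ornithine decarboxylase to the proteasome, and antizyme inhibitor (Azin1), an inactive relative of the decarboxylase, ties antizyme up. In the other direction, Sat1 acetylates spermidine and spermine so that they can be exported or oxidised by Paox, while Smox turns spermine straight back into spermidine and releases hydrogen peroxide. In skeletal muscle, Smox is known as a gene that falls in several forms of atrophy and that supports fibre size, and Odc1, Amd1 and Smox respond to androgens.

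Because TBP binds the TATA box of promoters, the DNA just before the start of the measured genes is shown for the genes that RefSeq promoter sequences (GRCm38.p6) were held for. These were Smox, Odc1 and Sat1, or 3 of the 5 measured genes. Each line gives the 250 bases before the start, read in the direction of the gene, and capitals mark the GC box GGGCGG on either strand. The windows were chr2:131491612-131491861 on the plus strand for Smox, chr12:17544623-17544872 on the plus strand for Odc1, and chrX:155216450-155216699 on the minus strand for Sat1.
Smox: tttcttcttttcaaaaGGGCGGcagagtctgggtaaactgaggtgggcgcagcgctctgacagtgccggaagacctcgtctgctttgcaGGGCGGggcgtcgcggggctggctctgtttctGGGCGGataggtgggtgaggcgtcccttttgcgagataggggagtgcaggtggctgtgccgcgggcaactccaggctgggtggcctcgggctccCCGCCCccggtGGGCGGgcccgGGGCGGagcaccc
Odc1: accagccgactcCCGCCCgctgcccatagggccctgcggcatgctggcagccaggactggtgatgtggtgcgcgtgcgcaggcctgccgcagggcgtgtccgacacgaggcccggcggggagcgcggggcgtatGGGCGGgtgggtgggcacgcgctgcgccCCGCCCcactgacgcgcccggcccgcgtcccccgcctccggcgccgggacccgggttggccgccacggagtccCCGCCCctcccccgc
Sat1: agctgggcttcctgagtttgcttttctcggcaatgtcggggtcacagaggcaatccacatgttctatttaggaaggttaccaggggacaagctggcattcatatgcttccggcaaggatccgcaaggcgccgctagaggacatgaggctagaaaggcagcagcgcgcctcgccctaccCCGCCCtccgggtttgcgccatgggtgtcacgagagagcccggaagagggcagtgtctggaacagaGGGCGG
The GC box stood 6 times in the Smox window, 4 times in that of Odc1 and 2 times in that of Sat1, with no match overlapping another. Of 32851 windows of the same length before gene starts, 32.7% held it. The 2 Smox matches nearest the start lay 24 to 19 and 13 to 8 bases before it. The letters TATAAA, searched on both strands, were in none of the 3 windows and in 12.4% of all windows. The E-box CACGTG, a palindrome, was also in none of the 3 and in 6.02% of all windows. G and C made up 68.0% of the Smox window, 80.0% of the Odc1 window and 59.6% of the Sat1 window, against a median of 52.4% over all windows. These matches describe the letters of the windows, and no binding was measured.

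Smox stood highest in WT muscle and lowest in KI muscle, with the cerebellum between them. In WT muscle its level was 8.23 on the array of replicate 95 and 8.75 on that of replicate 96. In KI muscle it was 7.24 on replicate 94 and 7.00 on replicate 97. Both KI muscle arrays were thus below both WT muscle arrays, and the WT arrays were farther apart than the KI arrays. The mean of the KI pair was 7.12 ± 0.17 and that of the WT pair 8.49 ± 0.36 (SD, n = 2), a log2 difference of -1.37 ± 0.17 (SE) or 2.59-fold. This is the value that chose the gene. It ran from -1.63 to -1.12 over 16 other ways of processing the arrays, among them each array left out.

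In the cerebellum no difference in Smox between the genotypes was detected. Its levels were 7.77 and 7.63 on the KI arrays and 7.62 and 7.82 on the WT arrays, so the groups overlapped. The log2 difference was -0.02 ± 0.17 (SE; 95% confidence interval -0.41 to 0.37; adjusted p = 1.00 in limma). The 4 group levels fell in the order WT muscle, WT cerebellum (7.72 ± 0.14), KI cerebellum (7.70 ± 0.10) and KI muscle. The cerebellum groups did not differ beyond their spread, while every WT muscle array was above and every KI muscle array below all 4 cerebellum arrays. Muscle thus exceeded cerebellum by 0.77 in WT and was 0.58 lower in KI on the log2 scale. The muscle effect minus the cerebellum effect was -1.36 ± 0.24 (SE), which holds the contrast that chose Smox.

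**Figure D1:**
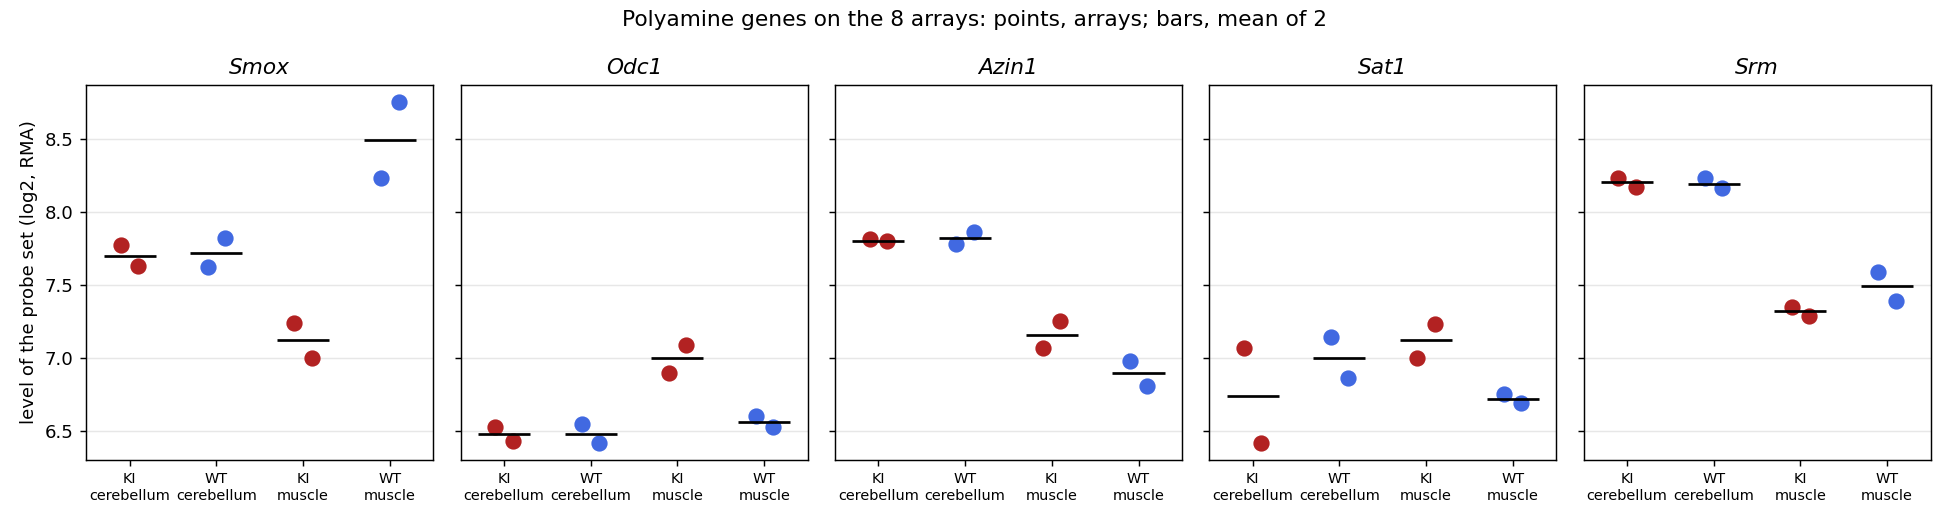
Level of the 5 measured polyamine genes on each of the 8 arrays (vertical axis, log2 RMA value) in the 4 groups (horizontal axis; red, KI; blue, WT); points are arrays and bars are means of 2. Smox is at 7.00 and 7.24 in KI muscle against 8.23 and 8.75 in WT muscle, with the cerebellum arrays between 7.62 and 7.82; levels of different genes come from different probe sets and are not comparable.

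The genes of polyamine synthesis came next. Odc1, the first enzyme of the pathway, was higher in KI muscle. Its level was 6.90 and 7.09 on the KI muscle arrays against 6.60 and 6.53 on the WT muscle arrays. The KI arrays were both above the WT arrays, and the log2 difference was 0.43 ± 0.11 (SE), or 1.35-fold. A second probe set that names Odc1 alone (10394770, beside 10582295) gave 7.04 and 6.88 in KI and 6.39 and 6.25 in WT muscle. Its difference was 0.65, so the direction was shared and the size depended on the probe set. In the cerebellum Odc1 was at 6.53 and 6.43 in KI and at 6.55 and 6.42 in WT. Those groups overlapped, with a difference of 0.00 ± 0.11 (SE; 95% confidence interval -0.26 to 0.26; adjusted p = 1.00 in limma). The WT muscle arrays overlapped with the cerebellum arrays too, so that KI muscle alone stood apart.

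Srm, which makes spermidine, was slightly lower in KI muscle. Its levels were 7.35 and 7.29 in KI against 7.59 and 7.39 in WT muscle, a log2 difference of -0.17 ± 0.11 (SE). The groups did not overlap, but the gap between the nearest arrays was small beside the distance of the WT arrays from each other. In the cerebellum Srm was at 8.23 and 8.17 in KI and at 8.23 and 8.16 in WT, a difference of 0.00 ± 0.11 (SE; 95% confidence interval -0.25 to 0.26; adjusted p = 1.00 in limma).

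Azin1, which protects ornithine decarboxylase from antizyme, was higher in KI muscle, at 7.07 and 7.25 against 6.98 and 6.81 in WT. The difference was 0.26 ± 0.11 (SE). The groups did not overlap, but the gap between the nearest arrays was smaller than the distance within either pair. With values quantile normalized once more the difference was 0.18. In the cerebellum Azin1 was at 7.81 and 7.80 in KI and at 7.78 and 7.86 in WT. There the difference was -0.02 ± 0.11 (SE; 95% confidence interval -0.27 to 0.24; adjusted p = 1.00 in limma).

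Sat1, the acetyltransferase that starts polyamine export and breakdown, was at 7.00 and 7.23 in KI muscle and at 6.75 and 6.69 in WT muscle. Both KI arrays were above both WT arrays, with a log2 difference of 0.39 ± 0.20 (SE). This SE rests on the spread in all 4 groups, the cerebellum among them. In a fit of muscle by itself it was 0.13, and Sat1 was called in neither fit. In the cerebellum Sat1 was the member that varied most between arrays of a group. It was at 7.07 and 6.42 in KI and at 7.14 and 6.86 in WT, so the groups overlapped. The difference there was -0.26 ± 0.20 (SE; 95% confidence interval -0.71 to 0.19; adjusted p = 0.998 in limma), and it rested on KI replicate 97: without that array it was 0.07.

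Over the 5 measured genes, KI muscle was lower for Smox and Srm and higher for Odc1, Azin1 and Sat1, and in each gene the arrays of the genotypes did not overlap. The same held for 50.2% of the 13933 genes tested in muscle, 30.3% with KI above and 19.9% with KI below. Tests in a tissue covered the genes for which at least 2 of the 4 arrays reached their own 40th percentile, and all 5 genes met this in both tissues. In limma 1 of the 5, Smox, was called in muscle at an adjusted p under 0.05, where 3.55% of all tested genes were called (2.66% higher and 0.89% lower); nothing is read from either count, since this contrast chose the set. The median difference was 0.26 over the 5 genes and 0.03 over all tested genes. In the cerebellum none of the 5 was without overlap, against 35.3% of 13641 tested genes. None was called in limma, where 0.205% of all tested genes were, and 0 of the 5 had an unadjusted p under 0.05, against 5.33% of all. The muscle effect minus the cerebellum effect was 0.43 ± 0.16 for Odc1, 0.65 ± 0.28 for Sat1, 0.28 ± 0.16 for Azin1 and -0.17 ± 0.16 for Srm (log2 ± SE). With Smox these made 0 of 5 calls at an adjusted p under 0.05, where 0.143% of 14708 genes were called, and 3 of the 5 had an unadjusted p under 0.05, against 13.8% of all. These values too hold the contrast that chose the set, and nothing is read from them.

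**Figure D2:**
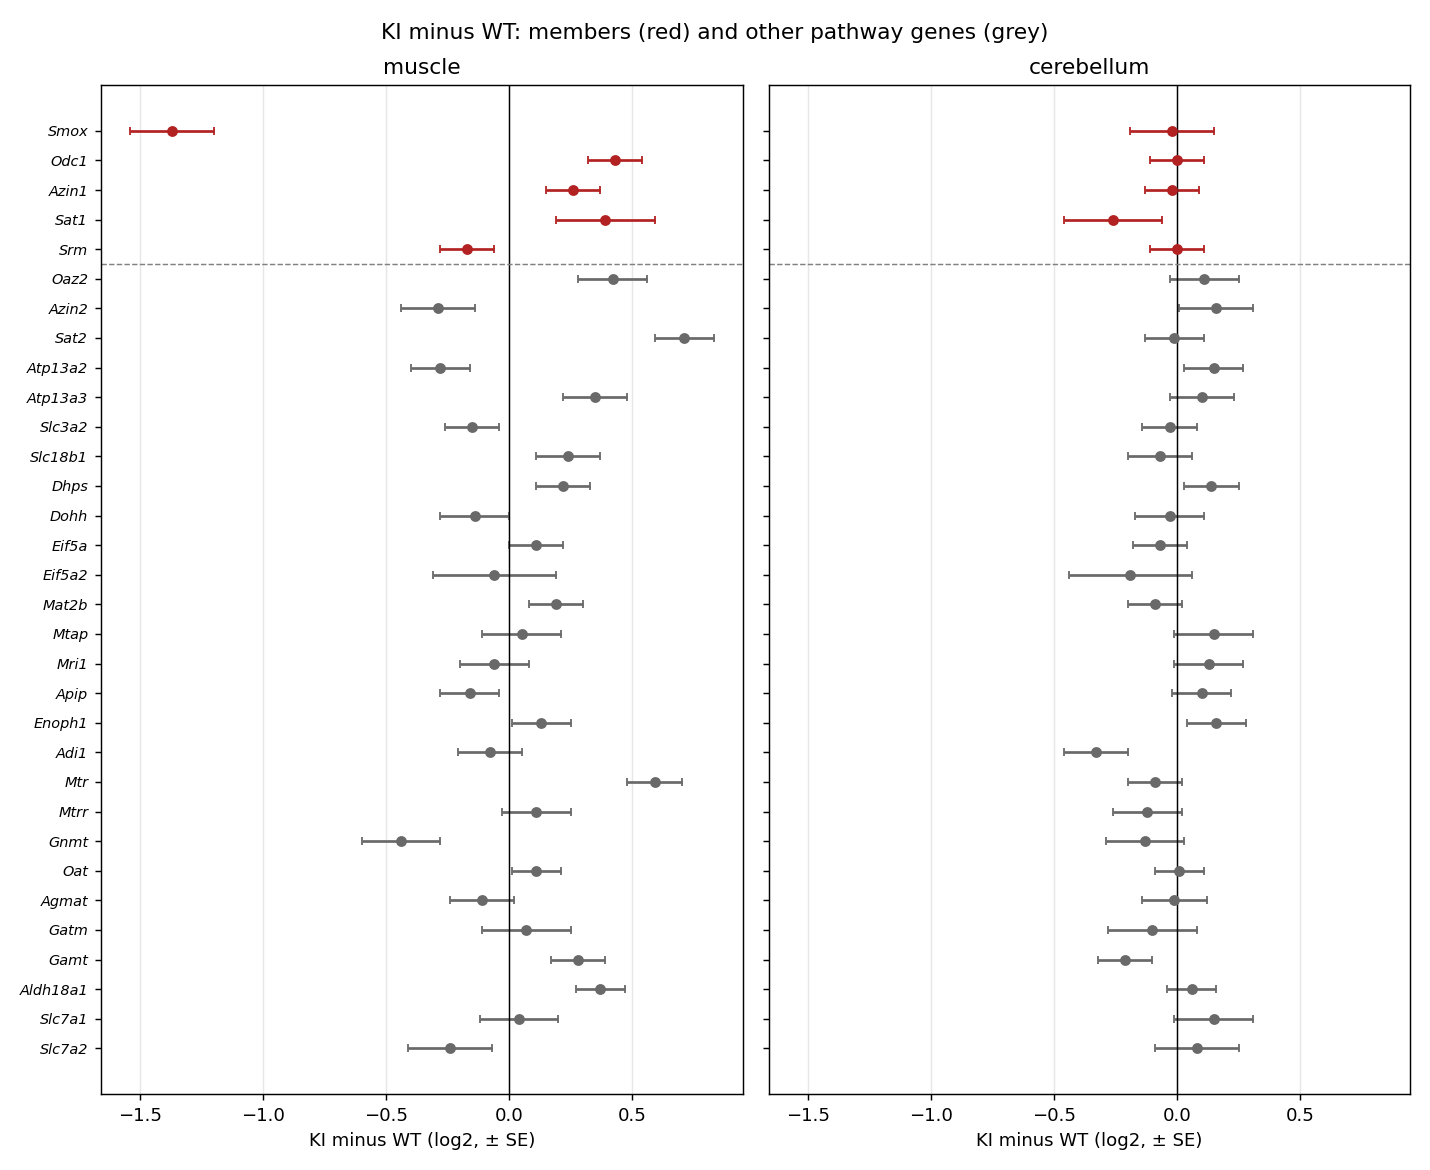
KI minus WT difference (horizontal axis, log2, bars ± SE) in muscle and in cerebellum for the 5 measured genes (red) and 27 other genes of the pathway (grey), 1 row per gene. Smox lies at -1.37 in muscle and at -0.02 in cerebellum, while Sat2 (0.71) and Mtr (0.59) lie farthest to the right in muscle.

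Markers of the cells in the tissue were compared as well, because in whole tissue fewer cells of a type and less RNA per cell cannot be told apart. The mean level of the 6 muscle fibre markers was 11.44 and 11.59 on the KI muscle arrays and 11.90 and 12.00 on the WT arrays. Of the 6, 5 had both KI arrays below both WT arrays, as had 19.9% of all tested genes, and none was called. The mean of 7 macrophage and microglia markers was 6.00 and 5.74 in KI and 5.60 and 5.67 in WT muscle, with 4 of 7 above WT without overlap, as were 30.3% of all tested genes, and none of the 6 tested called. In the cerebellum the mean of the 6 neuron markers was 10.01 and 10.25 in KI and 10.58 and 10.47 in WT; 4 of the 6 had KI below WT without overlap, as had 20% of all tested genes. The macrophage and microglia mean there was 5.85 and 5.90 in KI and 5.59 and 5.68 in WT (4 of 7 above without overlap, against 15.3% of all). The fibroblast mean was 6.84 and 6.86 against 6.63 and 6.75 (3 of 5 above). The endothelial mean was 5.99 and 6.02 against 5.78 and 5.99 (2 of 4 above). The measured satellite cell, Schwann cell and oligodendrocyte, and erythroid markers all overlapped there. None of these markers that was tested was called in the cerebellum. The means of the endothelial (7.63 to 8.07), fibroblast (8.47 to 9.14) and satellite cell (5.92 to 6.18) markers, of 3 of 5 Schwann cell and oligodendrocyte markers (6.76 to 7.32) and of the 1 measured erythroid marker of 3 (5.69 to 6.30) overlapped between the genotypes in muscle. The part of the fibre and macrophage markers in the muscle values of Smox and the other genes, and that of the markers in the cerebellum values, was not tested.

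The tissues were compared over the mean of both genotypes, a contrast that does not use the difference that chose Smox. Srm was lower in muscle than in cerebellum by 0.79 ± 0.08 on the log2 scale (SE), or 1.73-fold, with every muscle array below every cerebellum array (adjusted p = 9.89e-06 in limma). Azin1 was lower by 0.78 ± 0.08 (SE), or 1.72-fold, again without overlap of the tissues (adjusted p = 1.31e-05). Odc1 was higher in muscle by 0.30 ± 0.08 (SE; adjusted p = 0.00793), which came mostly from the KI arrays: the difference between tissues was 0.51 in KI and 0.08 in WT. Smox (0.10 ± 0.12, adjusted p = 0.501) and Sat1 (0.05 ± 0.14, adjusted p = 0.769; log2 ± SE) did not pass. For Smox the confidence interval ran from -0.18 to 0.37, and its mean over genotypes joins a WT difference and a KI difference of opposite sign. So 3 of the 5 passed at an adjusted p under 0.05, where 72.3% of all 14708 genes did. None was also changed 2-fold, against 26% of all genes (11% higher and 15% lower in muscle).

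**Figure D3:**
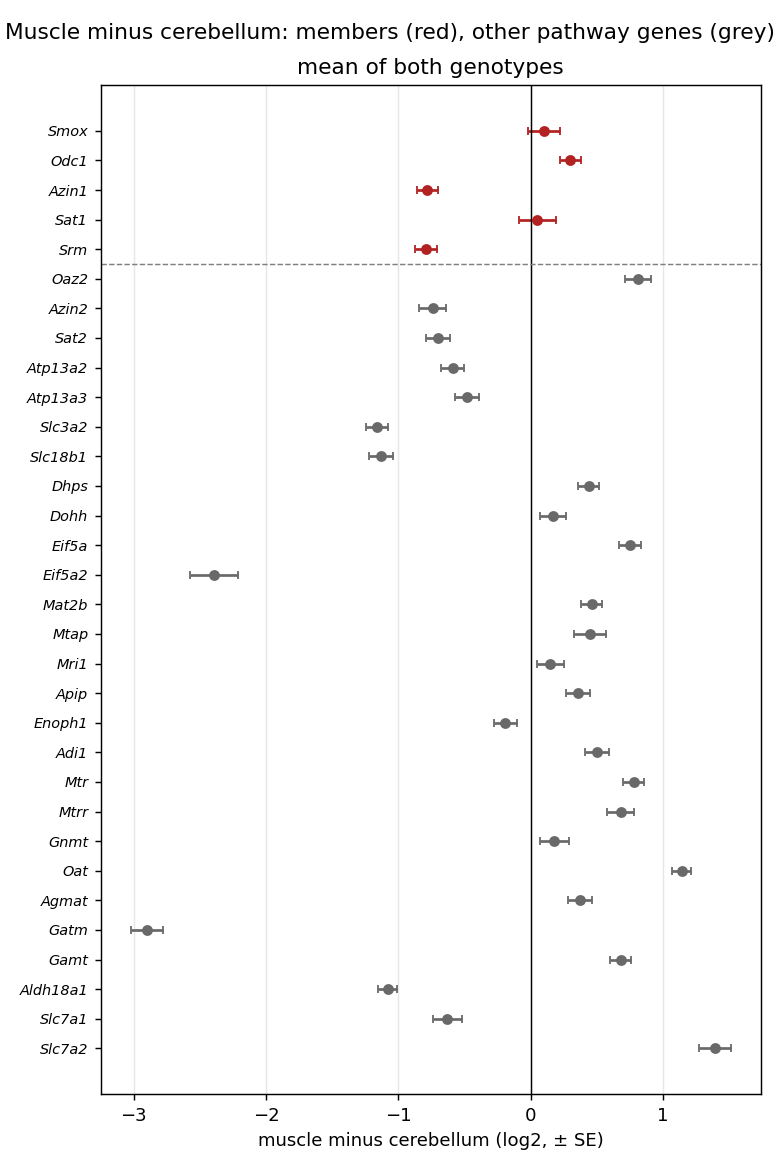
Muscle minus cerebellum difference over the mean of both genotypes (horizontal axis, log2, bars ± SE) for the 5 measured genes (red) and 27 other genes of the pathway (grey), 1 row per gene. Srm (-0.79) and Azin1 (-0.78) lie to the left and Smox (0.10) and Sat1 (0.05) lie near 0, while Gatm (-2.90) and Eif5a2 (-2.39) lie farthest to the left.

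The rest of the pathway was described through 4 lists with 36 genes in all, of which 33 had a probe set of their own and 27 were tested in each tissue. In KI muscle 2 of the 27 rose and none fell at an adjusted p under 0.05 in limma. Over all genes 2.66% were called higher and 0.89% lower. The lists were chosen with earlier results of these data known, so these counts and the calls named below are description. The median difference of the 27 was 0.07, against 0.03 over all tested genes. In muscle 8 of the 27 had an unadjusted p under 0.05 in limma, against 20.3% of all tested genes. In the cerebellum 0 of the 27 were called in limma, where 0.205% of all tested genes were. There 1 of the 27 had an unadjusted p under 0.05, against 5.33% of all.

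Sat2, a relative of Sat1 whose enzyme acts mainly on thialysine, rose 1.64-fold in KI muscle. It was at 6.44 and 6.35 in KI and at 5.76 and 5.60 in WT muscle. The KI arrays were well above the WT arrays (log2 difference 0.71 ± 0.12, SE; adjusted p = 0.0186 in limma). In the cerebellum Sat2 was at 6.74 and 6.73 in KI and at 6.87 and 6.62 in WT, a difference of -0.01 ± 0.12. The muscle effect minus the cerebellum effect was 0.72 ± 0.17 (SE) and did not pass (adjusted p = 0.13), so the tissues are not shown to differ. With any 1 of the 4 muscle arrays left out the adjusted p was between 0.0603 and 0.086, and in a fit of muscle by itself it was 0.0507, so the call was lost.

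Mtr, methionine synthase, which rebuilds methionine for the supply of S-adenosylmethionine, rose 1.51-fold in KI muscle. Its levels were 7.31 and 7.22 in KI against 6.60 and 6.75 in WT muscle, with no overlap (log2 difference 0.59 ± 0.11, SE; adjusted p = 0.027 in limma). In the cerebellum it was at 6.07 and 6.23 in KI and at 6.19 and 6.28 in WT, a difference of -0.09 ± 0.11. The effects in the tissues differed by 0.68 ± 0.16 (SE), which did not pass (adjusted p = 0.13). The call in muscle was lost without any 1 muscle array (0.0605 to 0.145), without WT cerebellum replicate 95 or 96 (0.0543 each) and in a fit of muscle by itself (0.0772).

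The list of regulation and transport held 7 tested genes, of which Sat2 was the one called in muscle. Of this list 4 genes had an unadjusted p under 0.05 in muscle and 0 in cerebellum in limma, against 20.3% and 5.33% of all tested genes. In the cerebellum its smallest p values belonged to Atp13a2, a lysosomal polyamine exporter (0.15 ± 0.12, adjusted p = 0.998), and Azin2, a second antizyme inhibitor (0.16 ± 0.15, 0.998; log2 ± SE). The 4 hypusine genes encode the enzymes that turn spermidine into a modified residue of the translation factor eIF5A, and forms of that factor. None was called in either tissue in limma, where 3.55% of all tested genes were called in muscle and 0.205% in cerebellum. An unadjusted p under 0.05 was reached by 0 of the 4, against 20.3% and 5.33% of all. Dhps, the enzyme that takes the spermidine, was at 0.22 ± 0.11 in muscle (adjusted p = 0.284) and 0.14 ± 0.11 in cerebellum (0.998). Dohh, which completes the residue, was at -0.14 ± 0.14 in muscle (0.633), and Eif5a2 at -0.19 ± 0.25 in cerebellum (1.00; log2 ± SE, limma).

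Among 9 tested genes of the methionine cycle and salvage, Mtr alone was called in muscle, where 3.55% of all tested genes were called. Of the 9, 2 had an unadjusted p under 0.05 in muscle and 1 in cerebellum in limma, against 20.3% and 5.33% of all tested genes. So few genes cannot be told from these shares. In the cerebellum the salvage enzymes Adi1 (-0.33 ± 0.13, adjusted p = 0.856) and Enoph1 (0.16 ± 0.12, 0.998) had the smallest p and did not pass. None of 7 tested arginine and ornithine genes was called in a genotype comparison in limma, where 2 had an unadjusted p under 0.05 in muscle and 0 in cerebellum, against 20.3% and 5.33% of all tested genes. Aldh18a1, which makes the precursor of proline and ornithine, was at 6.32 and 6.39 in KI and at 5.98 and 5.99 in WT muscle (0.37 ± 0.10, adjusted p = 0.0931). Gamt, which uses S-adenosylmethionine to make creatine, was at 7.60 and 7.63 in KI and at 7.27 and 7.39 in WT muscle (0.28 ± 0.11, adjusted p = 0.198). In the cerebellum Gamt had the other sign, at 6.76 and 6.62 in KI and 6.83 and 6.97 in WT (-0.21 ± 0.11, 0.998). The difference between those effects, 0.49 ± 0.16, did not pass (adjusted p = 0.244). Slc7a1, an importer of arginine and ornithine, was at 0.15 ± 0.16 in the cerebellum (0.998).

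Between the tissues, 7 of the 27 pathway genes were called with a change of at least 2-fold, 2 higher and 5 lower in muscle, which is close to the 26% of all genes called so (11% higher and 15% lower). The 2 were Slc7a2, an importer of cationic amino acids (1.39 ± 0.12, adjusted p = 3.13e-06), and Oat, ornithine aminotransferase (1.14 ± 0.07, 3.34e-07). The 5 were led by Gatm, which releases ornithine in the first step of creatine synthesis (-2.90 ± 0.12, adjusted p = 2.29e-08). The others were Eif5a2 (-2.39 ± 0.18), Slc3a2 (-1.16 ± 0.08), the vesicular polyamine transporter Slc18b1 (-1.13 ± 0.09) and Aldh18a1 (-1.08 ± 0.07; log2 ± SE, muscle minus cerebellum). Of these 7, Gatm alone was named by the rule for the tissues, which takes the largest changes. The others were added to this comparison after their values were seen. Eif5a2 and Aldh18a1 among them had been named by the rule for the genotype comparisons.

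Genes that act on the pathway or are acted on by polyamines did not pass between the genotypes. Of 8 upstream regulators 5 were measured, with 0 of 5 called in muscle and 0 of 4 tested in cerebellum in limma. Over all tested genes 3.55% were called in muscle and 0.205% in cerebellum. In either tissue 0 regulators had an unadjusted p under 0.05, against 20.3% and 5.33% of all tested genes. So few genes cannot be told from these shares. Hdac4 (-0.16 ± 0.14, adjusted p = 0.542) and the coactivator Ppargc1a (-0.18 ± 0.13, 0.488) had the smallest p in muscle. Both rested on single WT muscle arrays: Hdac4 was at -0.01 without replicate 96 and Ppargc1a at -0.04 without replicate 95. In the cerebellum these were Max, the partner of Myc (-0.26 ± 0.12, 0.935), and the stress factor Nfe2l2 (-0.07 ± 0.15, 1.00). Intracellular spermine plugs inward rectifier potassium channels. Of 8 such channel genes 5 were tested in muscle and 6 in cerebellum, with 0 called in either in limma and 2 and 0 at an unadjusted p under 0.05 (20.3% and 5.33% of all tested genes). Kcnj11, a pore subunit of the ATP-sensitive channel, was at 7.24 and 7.26 in KI and at 7.48 and 7.77 in WT muscle (-0.38 ± 0.12, adjusted p = 0.137). Kcnj9 was at -0.37 ± 0.17 in muscle (0.246), but at -0.09 without KI replicate 97 and -0.66 without KI replicate 94, and -0.23 ± 0.17 in cerebellum (0.998), and Kcnj12 at -0.09 ± 0.12 in cerebellum (1.00). By tissue, Nfe2l2 was 2.97-fold higher in muscle (1.57 ± 0.10, log2 ± SE; adjusted p = 4.50e-07 in limma). Kcnj2, the main strong rectifier of muscle, was between 7.72 and 8.20 on the muscle arrays and between 4.80 and 5.11 on the cerebellum arrays, where it did not pass the filter on low values. Kcnj3 was between 8.28 and 8.59 in the cerebellum and between 4.59 and 5.03 in muscle, where it did not pass that filter. Each entered the comparison of the tissues only through the tissue where it is high, so no fold is given.

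Finally, the 5 genes whose profile over the 8 arrays lay closest to that of Smox were found among the 14708 tested genes. Each gene was centred on its own mean, and likeness was the root mean square (RMS) of its log2 distance from Smox over the arrays. The closest was Dusp7, a phosphatase of ERK kinases, at an RMS of 0.189. Its levels were 8.23 and 7.92 in KI and 8.81 and 9.27 in WT muscle, with the cerebellum arrays between 8.26 and 8.38. Sgk1, the serum- and glucocorticoid-regulated kinase, followed at 0.212, with 7.61 on both KI muscle arrays against 8.80 and 9.03 in WT. Bcl6, a transcriptional repressor, was at 0.251, with 7.40 and 6.98 in KI and 8.32 and 8.37 in WT muscle. Flvcr1, a membrane transporter, lay at 0.304 and Gprc5c, an orphan receptor, at 0.311. Like Smox, the 5 were lower in KI muscle without overlap, with log2 differences between -1.30 for Sgk1 and -0.62 for Flvcr1, a likeness that the choice itself fixes. In the cerebellum they differed among themselves. Unlike Smox, Bcl6, Flvcr1 and Gprc5c were lower in KI there without overlap, as were 20% of all genes tested in cerebellum. For Flvcr1 the gap was small, with 7.54 and 7.53 in KI against 7.61 and 7.56 in WT. The cerebellum arrays were part of the choice as well. Gprc5c was at -0.43 ± 0.15 and Bcl6 at -0.27 ± 0.14 in KI minus WT, while Dusp7 (0.03 ± 0.16), Sgk1 (0.02 ± 0.20) and Flvcr1 (-0.06 ± 0.14; SE) lay near 0.

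**Figure D4:**
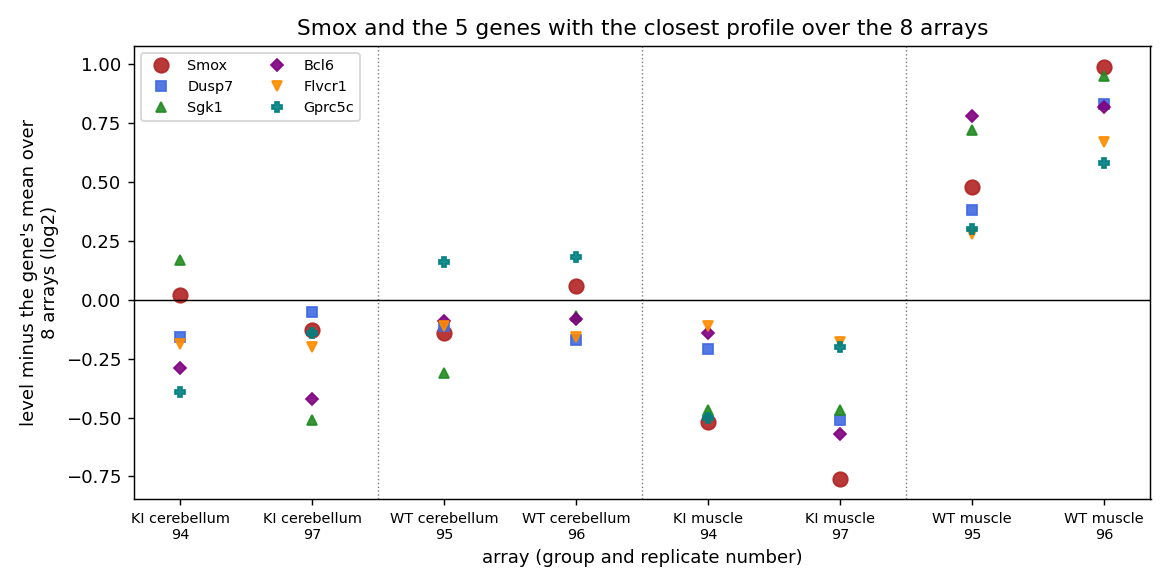
Level of Smox and of the 5 genes closest to it on each array (horizontal axis), as the distance from the gene's own mean over the 8 arrays (vertical axis, log2). All 6 genes are highest on the 2 WT muscle arrays, where Smox is 0.48 and 0.99 above its mean, and Smox is 0.52 and 0.76 below it on the KI muscle arrays.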

How the data were processed

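Total RNA of cerebellum and TA muscle was hybridised to Affymetrix Mouse Gene 1.0 ST arrays. What the authors deposited are log2 RMA values; GCOS and RMA are named per the submitters' processing notes, while no source used here gives versions, filters, the genome build or which arrays were normalised together. Of 35556 probe sets, 21789 carried 1 gene symbol, 1621 several and 12146 none.

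limma 3.58.1 (R 4.3.3) fitted all genes in 1 model of the 4 group means, so that the groups share 1 estimate of the spread, with empirical Bayes variances and Benjamini-Hochberg adjustment over all genes tested. The contrasts were KI minus WT in each tissue, muscle minus cerebellum, and the difference of the genotype effects. In each list and genotype comparison, the called genes or else the pair with the smallest p were named, and by tissue the 2 largest changes each way. The members and lists were chosen with earlier results of these data known. The fit was also run on simulated data with independent errors drawn from its own estimate of the spread. Those data held no effect shared between arrays, so the run cannot show how such effects would act on the tests. Alternatives changed the filter, the choice of probe set, the variances, the normalisation, array weights, the replicate block and the arrays used. Same-numbered arrays of the tissues did not deviate together (correlation 0.0565 for KI and -0.136 for WT over 12866 genes), so the numbers were not used as pairs.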

Additional observations from a re-analysis of the deposited data

How the results depend on the processing

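The muscle contrast chose Smox and is part of the difference of the genotype effects, so the counts of polyamine genes in both describe the fits and support nothing. Of the polyamine genes, 2 in place of 1 were called there with the mean of a gene's probe sets, which added Odc1 (0.54), and 1 in place of 0 in the difference of the genotype effects with trended and robust variances, which was Smox. The 2 calls among the other pathway genes in muscle became 1 with no filter, 0 with all probe sets and 0 with the arrays of 1 tissue alone, and from 0 to 2 with 1 array left out; the cause was not tested. Over all genes, 495 calls in muscle became 246, 69 and 155 under those settings, 105 to 385 with 1 array left out, and 706 with trended and robust variances. The 28 calls in cerebellum became 18 with no filter, 6 with all probe sets and 4 to 29 with 1 array left out, and the 21 of the difference became 3, 0 and 0 to 23, with 63 under trended and robust variances.

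Differences near 0 changed sign. With values quantile normalized once more, the cerebellum differences were 0.02 for Smox, 0.02 for Odc1 and 0.03 for Azin1. With 1 array left out, the cerebellum differences ran from -0.11 to 0.08 for Smox, -0.07 to 0.07 for Odc1, -0.03 to 0.04 for Srm, -0.58 to 0.07 for Sat1, -0.06 to 0.02 for Azin1, -0.03 to 0.34 for Azin2, -0.67 to 0.28 for Eif5a2, -0.27 to 0.14 for Nfe2l2 and -0.21 to 0.03 for Kcnj12. Those between the tissues ran from -0.03 to 0.22 for Smox and -0.11 to 0.21 for Sat1, and that of Dohh in muscle from -0.30 to 0.02.

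With the replicate number as a random block, 1 of the polyamine genes was called in muscle and 0 in cerebellum, and 2 and 0 of the other pathway genes. As a fixed block, 0 polyamine genes were called by tissue or in the difference, and 7 other pathway genes by tissue. The difference had 14 calls over all genes with that block and 3 with the WT numbers crossed, a pairing chosen after seeing the data. With 2 arrays in each group, small differences are not resolved.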
